A study of Mus musculus with 8 samples.

Results

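The genes of glycolysis, lactate handling, the pentose phosphate pathway and glycogen metabolism were followed in mouse CD8+ T cells from spleens and lymph nodes, by sequencing of polyadenylated RNA. A member was one of 39 named genes with a normalised read count of at least 10 in at least 2 libraries. All 39 met this in both experiments, among 15415 of 49490 listed genes in the first and 13978 of 55291 in the second. In the first experiment, Trim28-/- cells activated in vitro were set against Trim28fl/fl control cells activated in vitro, and the labels name neither the Cre driver nor the stimulus. In the second, wild-type cells given an anti-IL-2 antibody were set against untreated wild-type cells, and both groups were stimulated through CD3 and CD28 for 3 days. Each of the 4 groups had 2 libraries, called 1 and 2, or A and B where the blocked columns carry no number. No label tells whether a pair of libraries stands for separate mice or cultures, so p-values measure only the spread between libraries, which may be technical.

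Glycolysis splits glucose into pyruvate in the cytosol, and lactate dehydrogenase and the monocarboxylate transporters then turn pyruvate into lactate and carry it out of the cell. The pentose phosphate pathway branches off after the first step and yields NADPH and the ribose of nucleotides. Activated T cells are known for high glucose uptake and lactate output, which IL-2 signalling and the factors HIF-1α and MYC sustain.

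Trim28, the co-repressor removed in the first experiment, had a normalised read count of 415 and 458 in knockout libraries, against 4262 and 4323 in control libraries. Il2 had 5246 and 5410 in knockout libraries, against 9299 and 9217 in control libraries. Il2ra, the high-affinity chain of the IL-2 receptor, had 22025 and 21937 in blocked libraries, against 44645 and 43661 in untreated libraries. Each of these pairs of groups was separate. In the knockout Il2ra changed little (log2 fold change -0.15), a call lost when limma was run without the mean-variance trend (adjusted p = 0.0612). With blockade Il2 was at 0.11, which did not pass, though it did in 1 limma fit of all 8 libraries (adjusted p = 0.0262). Libraries held 13222831 to 17069569 reads. The 9 CD8 T cell markers summed to 3226 to 3265 CPM (reads set to the same library size) in knockout and 2797 to 2850 CPM in control libraries. Their sum was 3376 to 3529 CPM in blocked and 3749 to 3795 CPM in untreated libraries. The 8 B cell markers summed to 0.594 to 0.672 CPM in knockout and 2.64 to 2.80 CPM in control libraries, and to 3.34 to 3.40 CPM in blocked and 2.11 to 2.52 CPM in untreated libraries. The 8 myeloid markers summed to 10.9 to 11.95 CPM in knockout and 19.3 to 22.4 CPM in control libraries, and to 5.33 to 5.75 CPM in blocked and 20.5 to 21.4 CPM in untreated libraries. Adgre1 was at 0 in knockout and control libraries. CD4 and regulatory T cell markers summed to 11.6 to 12.8 CPM in knockout and 37.5 to 39.1 CPM in control libraries, and to 34.2 to 35.8 CPM in blocked and 29.0 to 32.9 CPM in untreated libraries. NK and innate lymphocyte markers summed to 36.2 to 36.8 CPM in knockout and 33.0 to 34.5 CPM in control libraries. Their sum was 72.3 to 74.5 CPM in blocked and 47.1 to 51.1 CPM in untreated libraries, with Ncr1 at 0 throughout. Both lists were mixed, since in each experiment 1 gene rose and 2 fell of the 3 tested per list. Log2 fold changes of the NK list ran from -2.76 to 1.01 in the knockout and from -2.996 to 1.28 with blockade. Those of the CD4 and regulatory list ran from -2.95 to 3.09 and from -2.45 to 0.49. The sums of both lists therefore cannot be read as amounts of these cells. Erythroid and stromal markers summed to 46.2 to 49.5 CPM in knockout and 24.4 to 39.5 CPM in control libraries, and to 68.1 to 69.9 CPM in blocked and 31.8 to 34.8 CPM in untreated libraries. Mitochondrially encoded genes took 1.52% of reads in knockout and 2.03% to 2.11% in control libraries, and 2.40% to 2.53% in blocked and 2.69% to 2.72% in untreated libraries. The part of other cells and of the mitochondrial share in the results was not tested. In bulk RNA fewer cells of a type and less RNA per cell cannot be told apart.

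Of the 39 members, 14 were called higher and 18 lower in knockout cells (adjusted p under 0.05), and 7 did not pass. Changes are given as log2 fold changes with their standard error (SE), from 2 libraries per group. The 32 called were 82.1% of the members, beside 61.0% of all genes tested. Here and below, the genes set beside the members were not matched to them for level, and the part of level in these shares was not tested. The risen made up 35.9% of members beside 32.9% of all genes, and the fallen 46.2% beside 28.2%. At least 2-fold changes were called in 6 of 39 members, all of them lower (Slc2a3, Pfkm, Pfkfb4, Aldoc, Pdk1 and Pygl). Over all 15415 genes they were called in 10.4%, with 989 lower and 621 higher. With IL-2 blocked, 13 members rose, 17 fell and 9 did not pass. The 30 called were 76.9% of members beside 60.3% of all genes, with 33.3% beside 31.4% higher and 43.6% beside 28.9% lower. At least 2-fold changes were called in 9 of 39 members, again all lower (Slc2a3, Gpi1, Pfkp, Aldoa, Aldoc, Pgk1, Pdk2, Gbe1 and Pygl). Over all 13978 genes they were called in 14.9%, with 1402 lower and 679 higher. The median log2 fold change of the members was -0.05 in the knockout, beside 0.03 over all genes, and -0.07 with blockade, beside 0.02. The plot of fold changes by step shows fallen and risen members side by side in upper and lower glycolysis, lactate handling, the pyruvate dehydrogenase kinases and glycogen metabolism, while no member of the pentose phosphate pathway fell in either experiment.

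**Figure D1:**
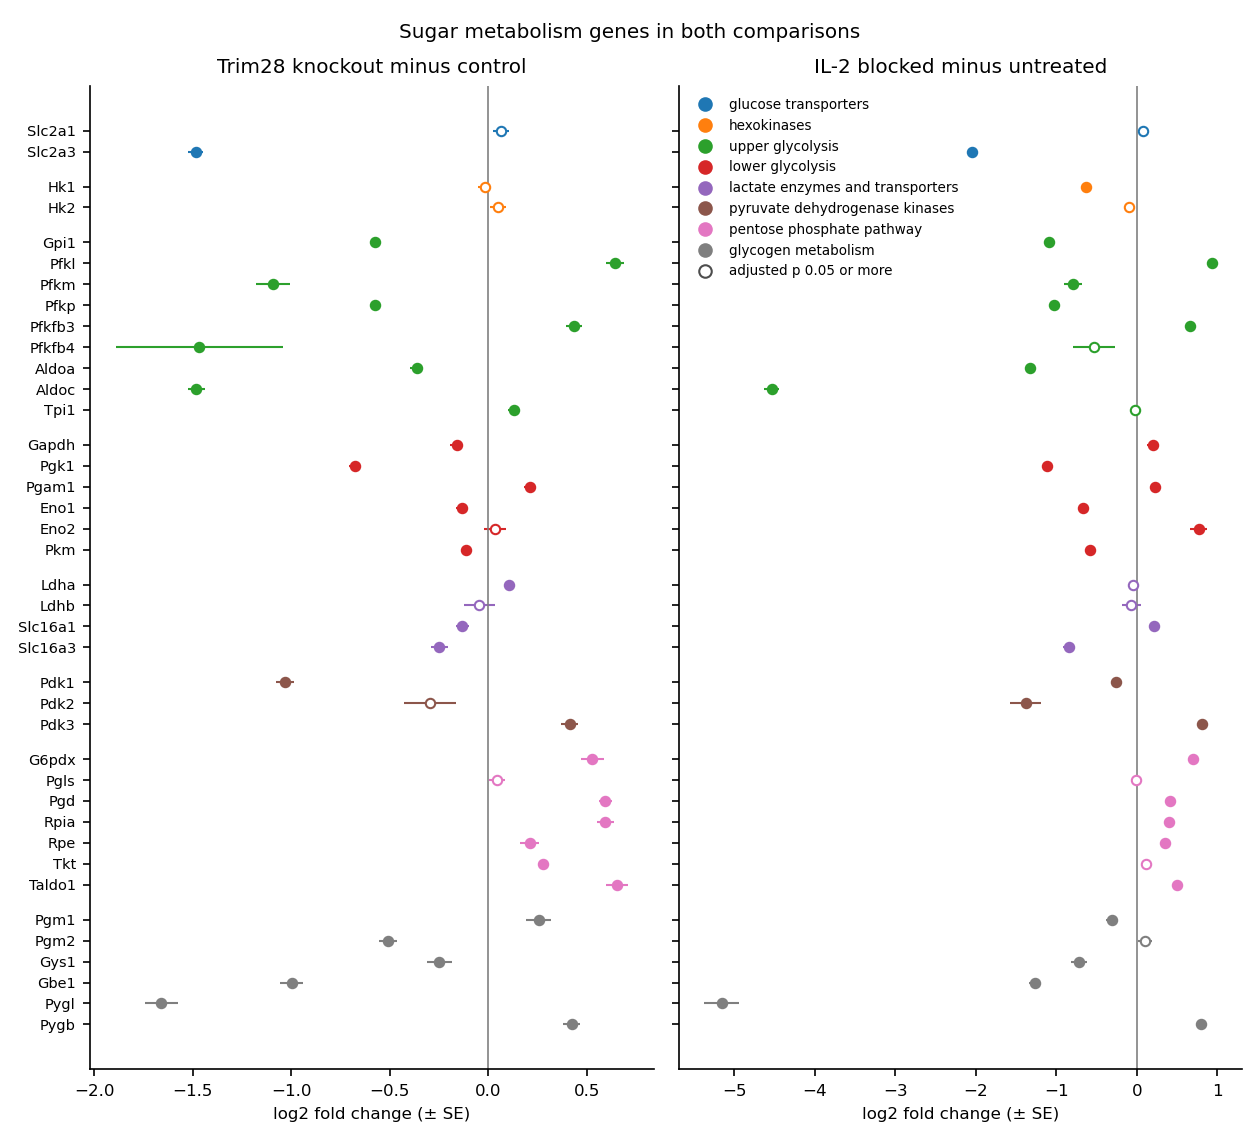
Log2 fold change of the 39 genes, grouped by step, in knockout minus control (left) and blocked minus untreated cells (right), with bars of 1 SE from limma with 2 libraries per group and open points for an adjusted p of 0.05 or more. The horizontal axes differ in range, and Aldoc and Pygl lie far to the left under blockade, at -4.54 and -5.16. The rows named Pgm1 and Pgm2 hold different genes left and right, since the names are exchanged, and cannot be read across.

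Members took 1.14% (95% Wilson interval 1.139 to 1.150) and 1.17% (1.163 to 1.175) of all reads in knockout libraries, against 1.305% (1.299 to 1.311) and 1.29% (1.287 to 1.299) in control libraries. They took 0.816% (0.811 to 0.820) and 0.858% (0.854 to 0.862) in blocked libraries, against 1.12% (1.111 to 1.121) and 1.11% (1.103 to 1.113) in untreated libraries. These intervals cover counting error only, and both perturbed groups lay below their references. Upper glycolysis took 0.329% and 0.339% of reads in knockout libraries against 0.424% and 0.415% in control libraries. It took 0.225% and 0.243% in blocked libraries, against 0.436% and 0.430% in untreated libraries. The pentose phosphate genes went the other way. Their share was 0.112% and 0.113% in knockout libraries against 0.0873% and 0.0858% in control libraries. With blockade it was 0.139% and 0.146%, against 0.115% and 0.113% in untreated libraries. Lactate enzymes and transporters differed least of these steps, at 0.199% and 0.201% in knockout against 0.189% and 0.191% in control libraries, and at 0.175% and 0.178% in blocked against 0.170% and 0.170% in untreated libraries. Such shares are weighted towards abundant transcripts, such as Aldoa, Pkm, Ldha, Pgk1 and Eno1. In the pentose phosphate pathway the most abundant by read count was Tkt.

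**Figure D2:**
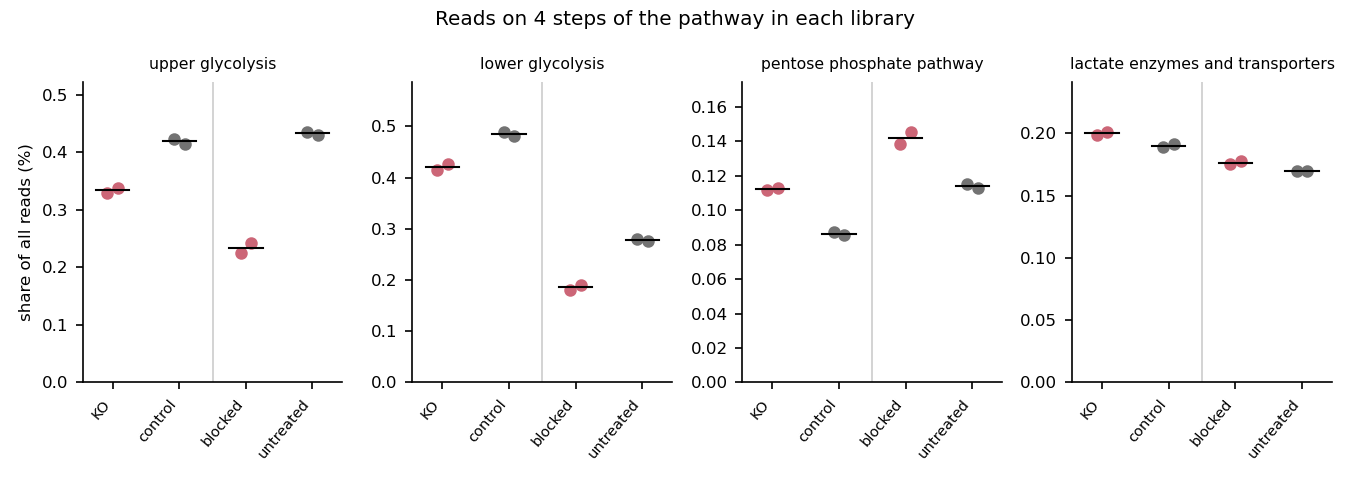
Share of all reads of a library (%) on the genes of 4 steps, with 1 point per library and a line at the mean of 2 libraries, knockout (KO) and blocked in red and control and untreated in grey. Upper and lower glycolysis lie below their references and the pentose phosphate pathway above, in both experiments.

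The phosphofructokinases Pfkl and Pfkp, and the glycogen phosphorylases Pygb and Pygl, moved in opposite directions, and their proximal promoters are printed here with those of Aldoc to show the DNA at their start sites. The windows run from 250 bases before to 50 bases after a RefSeq start (GRCm38.p6), written 5′ to 3′ along the gene. Capitals mark the letters ACGTG or GCGTG, the cores of the hypoxia response element, on either strand. Aldoc and Pygl fell most under blockade, Pfkp fell, and Pfkl and Pygb rose.
Aldoc, upstream start, chr11:78322823-78323122 (+ strand): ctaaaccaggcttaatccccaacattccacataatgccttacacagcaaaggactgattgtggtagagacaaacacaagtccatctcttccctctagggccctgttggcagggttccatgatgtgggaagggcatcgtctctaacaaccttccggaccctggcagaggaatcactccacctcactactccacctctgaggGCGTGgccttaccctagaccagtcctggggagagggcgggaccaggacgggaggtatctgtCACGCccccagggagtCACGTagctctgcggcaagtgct
Aldoc, downstream start, chr11:78323948-78324247 (+ strand): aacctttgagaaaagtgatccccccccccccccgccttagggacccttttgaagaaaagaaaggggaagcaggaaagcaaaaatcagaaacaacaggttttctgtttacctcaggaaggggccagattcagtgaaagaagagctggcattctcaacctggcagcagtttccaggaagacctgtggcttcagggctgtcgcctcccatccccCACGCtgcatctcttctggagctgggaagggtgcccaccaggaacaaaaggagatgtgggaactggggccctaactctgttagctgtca
Pfkl, chr10:78009758-78010057 (- strand): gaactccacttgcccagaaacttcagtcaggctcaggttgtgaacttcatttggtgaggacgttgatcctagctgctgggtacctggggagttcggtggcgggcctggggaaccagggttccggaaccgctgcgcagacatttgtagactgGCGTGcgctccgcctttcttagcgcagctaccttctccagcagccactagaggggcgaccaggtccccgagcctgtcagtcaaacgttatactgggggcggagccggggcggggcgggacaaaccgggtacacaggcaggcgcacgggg
Pfkp, chr13:6648722-6649021 (- strand): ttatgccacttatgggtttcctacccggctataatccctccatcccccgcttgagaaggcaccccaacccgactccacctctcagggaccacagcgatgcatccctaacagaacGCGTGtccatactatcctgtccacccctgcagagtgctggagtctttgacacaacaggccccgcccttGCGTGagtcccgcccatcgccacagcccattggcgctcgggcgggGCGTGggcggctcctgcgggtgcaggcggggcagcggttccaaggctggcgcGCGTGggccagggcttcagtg
Pygl, chr12:70227634-70227933 (- strand): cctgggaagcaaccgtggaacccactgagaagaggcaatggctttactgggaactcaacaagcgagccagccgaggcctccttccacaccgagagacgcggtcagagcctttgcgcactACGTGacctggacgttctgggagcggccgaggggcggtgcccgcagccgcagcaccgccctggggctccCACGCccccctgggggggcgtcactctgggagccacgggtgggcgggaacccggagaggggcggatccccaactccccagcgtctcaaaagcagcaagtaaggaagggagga
Pygb, chr2:150786546-150786845 (+ strand): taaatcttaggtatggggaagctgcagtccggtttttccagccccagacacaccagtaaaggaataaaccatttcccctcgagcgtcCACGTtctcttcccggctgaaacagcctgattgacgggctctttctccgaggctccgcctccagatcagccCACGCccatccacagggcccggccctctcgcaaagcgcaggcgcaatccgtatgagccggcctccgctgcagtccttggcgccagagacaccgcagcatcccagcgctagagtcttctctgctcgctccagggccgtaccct

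A window was matched for 36 of the 37 members looked up (51 windows), while Slc2a3 had none and Pgm1 and Pgm2 were left out for the reason given below. At least 1 core was present in 83.3% of the 36 members, beside 46.7% of all 27025 genes with a window, and per window the shares were 74.5% and 43.8%. Member windows were richer in G and C, with a median of 60.7% beside 52.7%, and had more windows per gene than the 32851 windows of all genes, so the shares are not on an equal footing. Cores stood in 10 of 13 members lower in both experiments and in 9 of 10 members higher in both. The E-box CACGTG, which contains ACGTG, was in 13.9% of members beside 8.09% of genes. TTC and GAA set 3 bases apart, the STAT motif, were in 5.56% of members (Aldoc and Pfkm) beside 9.55% of genes. These are matches of letters on both strands and no evidence of binding.

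Glucose enters through Slc2a1 (GLUT1), the main transporter of activated T cells, and Slc2a3 (GLUT3), a high-affinity transporter (chr6:122727809-122801640, minus strand, GENCODE annotation on GRCm38). Slc2a3 had a normalised read count of 1819 and 1826 in knockout libraries, against 4947 and 5269 in control libraries. It had 860 and 807 in blocked libraries, against 3343 and 3541 in untreated libraries. Neither pair of groups overlapped, and the log2 fold changes were -1.49 (SE 0.038, adjusted p = 6.04e-06) and -2.04 (SE 0.059, adjusted p = 7.29e-16). Slc2a1 had 1748 and 1766 in knockout libraries against 1632 and 1731 in control libraries, and 1742 and 1914 in blocked libraries against 1754 and 1696 in untreated libraries. The blocked and untreated values of Slc2a1 overlapped, and the knockout libraries lay just above the control libraries. Its changes did not pass, with 95% intervals of the log2 fold change from -0.03 to 0.16 in the knockout and from -0.04 to 0.21 with blockade (without blocked library A, 0.15, adjusted p = 0.00543). RPKM are reads scaled to the length of all annotated exons of a gene and to library size. GLUT3 made up 33.5% and 33.3% of the RPKM of both transporters in knockout libraries, against 59.5% and 59.6% in control libraries. Under blockade it made up 19.3% and 16.9%, against 48.0% and 50.2% in untreated libraries. Of 7 other genes of glucose and lactate transport tested, 3 rose and 2 fell in the knockout, and 1 rose and 4 fell with blockade, and counts for this and the other lists stand beside the shares of all genes given above. Slc2a6 (GLUT6) rose in both, with log2 fold changes of 1.92 in the knockout and 1.09 with blockade, and Slc2a9, a urate transporter, fell in both, at -1.48 and -1.13. Bsg and Emb, chaperone proteins of the monocarboxylate transporters, fell with blockade, at -0.71 and -1.45. Emb did not pass in the knockout (-0.08), though it did with TMM scaling (-0.11, adjusted p = 0.0185) and upper-quartile scaling (-0.15, adjusted p = 0.00644).

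Hexokinases trap glucose as glucose 6-phosphate. Hk1 had 2215 and 2151 in knockout libraries, against 2182 and 2241 in control libraries, and these values overlapped. It had 2786 and 3089 in blocked libraries against 4577 and 4537 in untreated libraries, which were well apart (log2 fold change -0.64, SE 0.055, adjusted p = 8.71e-09). The effects on Hk1 differed by 0.62 between the knockout and blockade (SE 0.069, adjusted p = 1.58e-05). Hk2, the inducible isozyme, did not pass in either, with intervals of -0.05 to 0.15 in the knockout and -0.20 to 0.00 with blockade. The blockade change of Hk2 passed without blocked library A (-0.09, adjusted p = 0.0401) and without B (-0.11, adjusted p = 0.00792).

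In upper glycolysis, phosphofructokinase commits sugar to breakdown and is built from liver (Pfkl), muscle (Pfkm) and platelet (Pfkp) subunits. Pfkl had 1328 and 1394 in knockout libraries against 853 and 891 in control libraries, and 1849 and 2009 in blocked libraries against 1016 and 1008 in untreated libraries. Pfkp had 4893 and 4919 in knockout libraries against 7286 and 7340 in control libraries, and 6457 and 6648 in blocked libraries against 13503 and 13291 in untreated libraries. Pfkm had 120 and 132 in knockout libraries against 283 and 257 in control libraries, and 179 and 217 in blocked libraries against 332 and 354 in untreated libraries. Pfkl was thus higher and Pfkp and Pfkm lower, with no overlap, in both experiments. The log2 fold changes in the knockout were 0.64 for Pfkl (SE 0.044, adjusted p = 0.000104), -0.58 for Pfkp (SE 0.024) and -1.09 for Pfkm (SE 0.086). With blockade they were 0.93 for Pfkl (SE 0.061, adjusted p = 1.31e-10), -1.03 for Pfkp (SE 0.048) and -0.79 for Pfkm (SE 0.11). Gpi1, which turns glucose 6-phosphate into fructose 6-phosphate, fell by 0.58 in the knockout. It had 7582 and 8388 in blocked libraries against 17328 and 16746 in untreated libraries, well apart, a log2 fold change of -1.09.

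The bifunctional enzymes Pfkfb3 and Pfkfb4 set the level of fructose 2,6-bisphosphate, an activator of phosphofructokinase. Pfkfb3 rose by 0.43 in the knockout and 0.67 with blockade. Pfkfb4 had 14.8 and 39.2 in knockout libraries against 76.1 and 61.8 in control libraries, a low and scattered level. Its log2 fold change was -1.47 (SE 0.42, adjusted p = 0.0261), and -0.79 without knockout library 1 (adjusted p = 0.0638). With blockade it had 26.7 and 49.9 against 46.8 and 60.8 in untreated libraries, which overlapped (-0.53, SE 0.26, adjusted p = 0.0852). That change was -0.97 without blocked library B (adjusted p = 0.00109) and -0.72 without untreated library 1 (adjusted p = 0.0213).

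Aldolases cleave fructose 1,6-bisphosphate, and Aldoc (aldolase C, chr11:78322968-78327781, plus strand) is known as the brain form. Aldoc had 440 and 419 in knockout libraries, against 1206 and 1197 in control libraries. It had 62.0 and 71.9 in blocked libraries, against 1628 and 1517 in untreated libraries. The log2 fold change was -1.48 in the knockout (SE 0.044, adjusted p = 8.81e-06) and -4.54 with blockade (SE 0.097, adjusted p = 1.1e-17), 2.80-fold and 23.2-fold lower levels on the scale of log2 (value + 1). Aldoa, the abundant form, had 20406 and 21317 in knockout libraries against 27539 and 26192 in control libraries, and 12869 and 14368 in blocked libraries against 34503 and 33537 in untreated libraries. It fell in both, with log2 fold changes of -0.36 (SE 0.034) and -1.32 (SE 0.055) and no overlap of groups. A second annotated gene next to Aldoa carries the same name, so which of them the deposited row counts was not known. Tpi1, triose phosphate isomerase, rose by 0.13 in the knockout but not without knockout library 2 (0.09, adjusted p = 0.0737) or with upper-quartile scaling (0.06, adjusted p = 0.174), and it did not pass with blockade (-0.02, 95% interval -0.13 to 0.09).

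**Figure D3:**
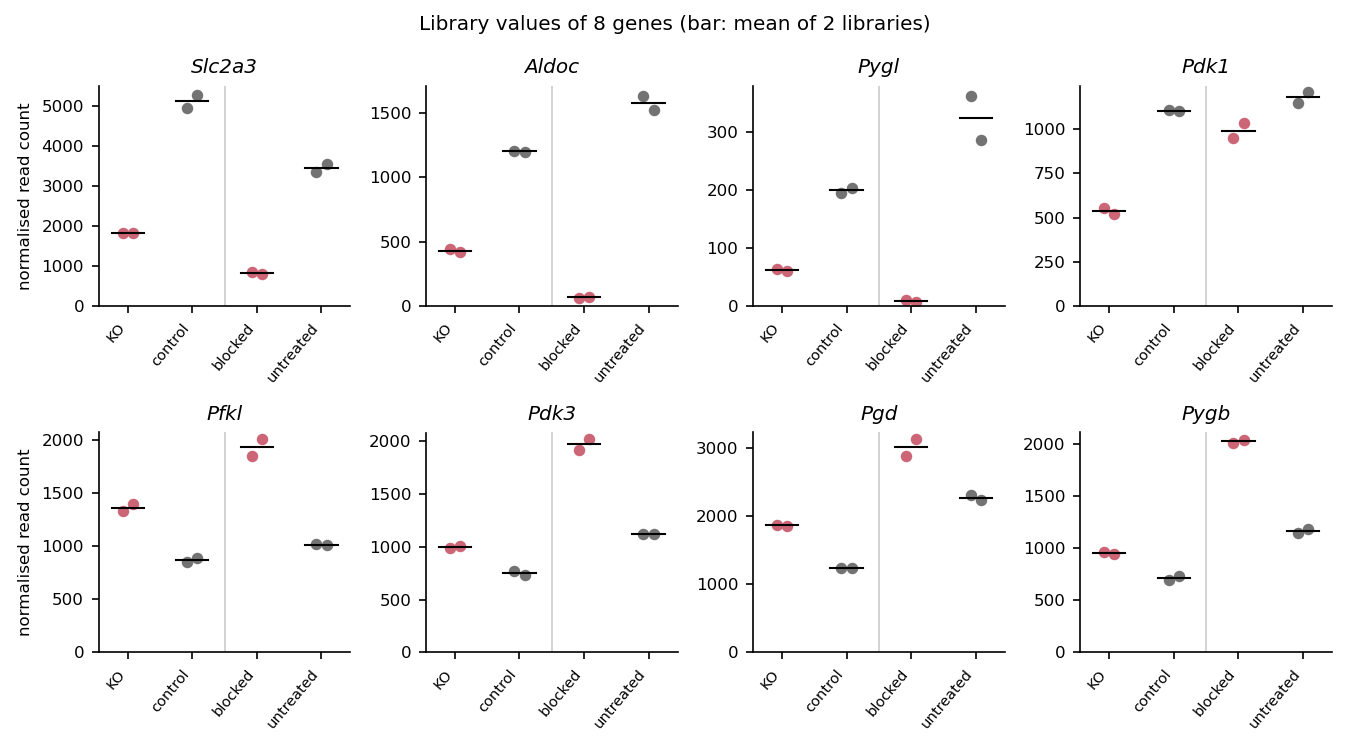
Normalised read count of 8 genes in each library on axes starting at 0, with 1 point per library and a line at the mean of 2 libraries, knockout (KO) and blocked in red and control and untreated in grey. Slc2a3, Aldoc, Pygl and Pdk1 lie lower and Pfkl, Pdk3, Pgd and Pygb higher in knockout and in blocked libraries than in their references.

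Lower glycolysis runs from glyceraldehyde 3-phosphate to pyruvate and returns ATP. Pgk1, phosphoglycerate kinase, had 10367 and 10840 in knockout libraries against 17009 and 16914 in control libraries, and 5234 and 5114 in blocked libraries against 11303 and 11048 in untreated libraries. It was lower without overlap in both, with log2 fold changes of -0.68 (SE 0.028) and -1.11 (SE 0.048). Pkm, pyruvate kinase, had 25382 and 25790 in knockout libraries against 28116 and 27265 in control libraries, and 16224 and 17761 in blocked libraries against 25610 and 25074 in untreated libraries. It fell with blockade (-0.58, SE 0.053) and in the knockout (-0.11, SE 0.024), where it did not pass without knockout library 1 (-0.10, adjusted p = 0.102) or 2 (-0.13, adjusted p = 0.0721). Eno1, the main enolase, fell with blockade (-0.67, SE 0.05) and in the knockout (-0.14, and without knockout library 1, -0.10, adjusted p = 0.076). Eno2, the neuronal form, rose with blockade by 0.77 (SE 0.1) and did not pass in the knockout (0.03, 95% interval -0.11 to 0.17). Pgam1, phosphoglycerate mutase, rose by 0.21 in the knockout and 0.23 with blockade, and the blockade value did not pass without untreated library 1 (0.23, adjusted p = 0.0551) or 2 (0.22, adjusted p = 0.0579). Gapdh, often taken as a reference gene, fell by 0.16 in the knockout (without knockout library 1, -0.14, adjusted p = 0.0786) and rose by 0.20 with blockade (without untreated library 2, 0.13, adjusted p = 0.32).

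Counts of glycolytic genes with near-identical processed copies in the genome are uncertain, since reads can be split among the copies. The separately made tables differed here. Eno1b, a copy of Eno1, had 4903 and 5158 in knockout libraries and 5839 and 5586 in control libraries, but 136 and 127 in blocked and 176 and 194 in untreated libraries. Gapdh had 3442 to 3979 in the first experiment and 570 to 696 in the second. The values of Gapdh, Eno1, Pgam1, Pgk1, Ldha, Tpi1, Aldoa and Pkm are therefore uncertain. Their levels are compared only within an experiment, and a difference between their effects in the 2 experiments carries the same uncertainty. Of 18 other genes of glycolysis and gluconeogenesis tested, 7 rose and 7 fell in the knockout, and 5 rose and 9 fell with blockade. Eno3, the muscle enolase, rose in both, with log2 fold changes of 1.35 and 1.74. Gpd2, the mitochondrial glycerol phosphate dehydrogenase, fell in both (-0.61 and -1.23), and Adpgk, a glucokinase that uses ADP, rose by 0.96 in the knockout and 0.44 with blockade.

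Lactate dehydrogenase A makes lactate from pyruvate, and Slc16a1 (MCT1) and Slc16a3 (MCT4) carry lactate across the membrane. Slc16a3 had 1017 and 1087 in knockout libraries against 1246 and 1254 in control libraries, and 885 and 973 in blocked libraries against 1634 and 1708 in untreated libraries. It was lower without overlap in both, with log2 fold changes of -0.25 (SE 0.044, adjusted p = 0.00395) and -0.85 (SE 0.064, adjusted p = 1.05e-09). Slc16a1 fell by 0.13 in the knockout and rose by 0.21 with blockade. The knockout value of Slc16a1 did not pass without control library 2 (-0.11, adjusted p = 0.0607), knockout library 1 (-0.10, adjusted p = 0.11) or knockout library 2 (-0.16, adjusted p = 0.0543), nor the blockade value without untreated library 1 (0.20, adjusted p = 0.0752). Ldha rose by 0.11 in the knockout, but not without knockout library 2 (0.10, adjusted p = 0.055) or with upper-quartile scaling (0.04, adjusted p = 0.181). With blockade Ldha was at -0.05 (95% interval -0.15 to 0.06), and at -0.09 without blocked library B (adjusted p = 0.00184). Ldhb did not pass in either, with intervals of -0.24 to 0.15 in the knockout and -0.30 to 0.17 with blockade. By RPKM Ldha ranked first among the 37 members in knockout and in blocked cells, at 480.4 and 380.7.

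Pyruvate dehydrogenase kinases switch off the complex that feeds pyruvate into the mitochondrion. Pdk1 had 555 and 522 in knockout libraries against 1107 and 1101 in control libraries, and 948 and 1034 in blocked libraries against 1149 and 1210 in untreated libraries. Pdk2 had 32.5 and 32.4 in knockout libraries against 39.6 and 40.5 in control libraries, and 39.1 and 32.6 in blocked libraries against 94.6 and 94.7 in untreated libraries. Pdk3 had 986 and 1012 in knockout libraries against 769 and 733 in control libraries, and 1921 and 2019 in blocked libraries against 1121 and 1120 in untreated libraries. Pdk1 and Pdk2 lay lower and Pdk3 higher in both experiments, with no overlap of groups. Pdk1 fell in the knockout (-1.03, SE 0.046, adjusted p = 2.61e-05) and with blockade (-0.25, SE 0.065, adjusted p = 0.00251), and the blockade value did not pass without untreated library 2 (-0.22, adjusted p = 0.066). Pdk2 did not pass in the knockout (-0.30, SE 0.13, adjusted p = 0.102). It did pass there in limma without the mean-variance trend (adjusted p = 0.0126) and without the filter (adjusted p = 0.0382). With blockade Pdk2 fell by 1.38 (SE 0.19, adjusted p = 3.66e-06). Pdk3 rose by 0.41 (SE 0.043) and 0.81 (SE 0.058). Of 10 other genes of pyruvate entry tested, 5 rose and 0 fell in the knockout, and 6 rose and 1 fell with blockade, beside 32.9% and 31.4% of all genes higher and 28.2% and 28.9% lower. Dlat, a subunit of the pyruvate dehydrogenase complex, rose in both, by 0.65 and 0.50, and Pdp1, the phosphatase that opposes the kinases, rose by 1.02 in the knockout and fell by 0.43 with blockade.

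In the pentose phosphate pathway, 6 of 7 members rose and 0 fell in the knockout, and 5 rose and 0 fell with blockade, beside 32.9% and 31.4% of all genes higher and 28.2% and 28.9% lower. Pgd, phosphogluconate dehydrogenase (chr4:149149991-149166771, minus strand), had 1877 and 1864 in knockout libraries against 1238 and 1240 in control libraries, and 2888 and 3136 in blocked libraries against 2306 and 2235 in untreated libraries. It was higher without overlap in both, by 0.59 (SE 0.031, adjusted p = 4.33e-05) and 0.41 (SE 0.056, adjusted p = 3.75e-06). G6pdx, the first enzyme of the oxidative arm, rose by 0.53 in the knockout (SE 0.058) and 0.70 with blockade (SE 0.06). Pgls, the second, did not pass in either, with intervals of -0.06 to 0.14 in the knockout and -0.14 to 0.13 with blockade. In the arm that rearranges pentoses, Taldo1 rose by 0.65 and 0.49, and Rpia rose by 0.59 and 0.40. Rpe rose by 0.21 and 0.36, and the knockout value did not pass without control library 2 (0.16, adjusted p = 0.0517), knockout library 1 (0.19, adjusted p = 0.113) or knockout library 2 (0.23, adjusted p = 0.0869). Tkt, the abundant transketolase, rose by 0.27 in the knockout and did not pass with blockade (0.12, adjusted p = 0.0553), though it passed without blocked library A (0.17, adjusted p = 1.52e-07). Other genes tie this pathway to ribose and nucleotides, and of 7 tested 5 rose and 0 fell in the knockout and 6 rose and 1 fell with blockade, beside the same shares of all genes. H6pd, the form of the first enzymes in the endoplasmic reticulum, rose by 0.72 and 0.83. Exons of other genes overlap 13.6% of G6pdx, 20.6% of Pgls and 17.9% of Rpe, and the sources used here do not say whether strand was counted.

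Glycogen is built by glycogen synthase (Gys1) and the branching enzyme (Gbe1) and broken down by phosphorylases of liver (Pygl) and brain (Pygb) type. Pygl (chr12:70190811-70231488, minus strand) had 64.0 and 60.8 in knockout libraries against 195 and 204 in control libraries. It had 9.55 and 6.71 in blocked libraries against 361 and 285 in untreated libraries. The log2 fold changes were -1.66 (SE 0.085, adjusted p = 3.95e-05) and -5.16 (SE 0.21, adjusted p = 1.39e-13), and both blocked libraries lay under 10, where log2 (value + 1) understates the change. The myeloid marker sum given above moved in the same direction as Pygl in both experiments, and its part in that result was not tested. Pygb (chr2:150786735-150831758, plus strand) had 965 and 942 in knockout libraries against 694 and 730 in control libraries, and 2007 and 2044 in blocked libraries against 1150 and 1188 in untreated libraries. It was higher without overlap in both, by 0.42 (SE 0.044) and 0.79 (SE 0.057). Gbe1 had 269 and 250 in knockout libraries against 511 and 526 in control libraries, and 303 and 321 in blocked libraries against 743 and 760 in untreated libraries. Gbe1 was lower without overlap in both, at -0.998 (SE 0.059) and -1.27 (SE 0.078). Gys1 fell with blockade (-0.72) and in the knockout (-0.25), where it did not pass without control library 2 (-0.24, adjusted p = 0.0617), knockout library 1 (-0.25, adjusted p = 0.0657) or knockout library 2 (-0.25, adjusted p = 0.0671).

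The phosphoglucomutases Pgm1 and Pgm2, which link glucose 1-phosphate and glucose 6-phosphate, have exchanged names between annotation releases. In the knockout table the 40 rows around Pgm1 all held genes of chromosome 5, and those around Pgm2 genes of chromosome 4. In the blockade table this was reversed. Each name therefore stands for a different gene in each table, and the names were not compared across experiments. In the knockout table Pgm2 fell by 0.51 and Pgm1 rose by 0.25, though Pgm1 did not pass without knockout library 1 (0.20, adjusted p = 0.0778). In the blockade table Pgm1 fell by 0.31, not passing without untreated library 2 (-0.22, adjusted p = 0.0864), and Pgm2 did not pass (0.10, 95% interval -0.09 to 0.28, and 0.20 without blocked library A, adjusted p = 0.0363). Of other genes of glycogen metabolism, 4 rose and 5 fell of 16 tested in the knockout, and 6 rose and 4 fell of 15 with blockade. Ppp1r3b, which brings a phosphatase to glycogen, fell in both (-1.86 and -1.66), as did Pygm, the muscle phosphorylase (-1.51 and -1.21).

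These changes altered the isozyme make-up, measured as each isozyme's part of its family's RPKM. Pfkl made up 33.2% and 33.9% of phosphofructokinase RPKM in knockout libraries against 16.9% and 17.6% in control libraries, and 34.1% and 34.9% in blocked libraries against 12.1% and 12.1% in untreated libraries. Pdk1 made up 15.3% and 14.2% of the kinases in knockout libraries against 31.3% and 32.1% in control libraries, and 13.8% and 14.3% in blocked libraries against 24.0% and 25.0% in untreated libraries. Pygl made up 4.42% and 4.31% of the 2 phosphorylases in knockout libraries against 16.4% and 16.3% in control libraries, and 0.331% and 0.229% in blocked libraries against 17.9% and 14.3% in untreated libraries. No group overlapped its reference in these shares, and the main isozyme by RPKM was Pfkp, Pdk3 and Pygb in every library. The summed RPKM of phosphofructokinases was 45.5 and 46.6 in knockout libraries against 56.2 and 56.6 in control libraries. It was 49.9 and 52.6 in blocked libraries against 72.8 and 73.0 in untreated libraries. For the 2 glucose transporters the sum was also lower, at 56.8 and 57.25 in knockout against 85.4 and 91.1 in control libraries. It was 37.8 and 40.2 in blocked against 55.6 and 56.8 in untreated libraries. The sums of the kinases and of the 2 phosphorylases were higher. That of the kinases was 35.4 and 35.8 in knockout against 33.8 and 32.9 in control libraries. With blockade it was 54.35 and 56.9, against 35.6 and 36.4 in untreated libraries. That of the 2 phosphorylases was 15.9 and 15.5 in knockout against 12.8 and 13.5 in control libraries. With blockade it was 25.7 and 26.0, against 16.8 and 16.9 in untreated libraries. RPKM rested on all annotated exons of a gene, and other isoforms would shift the shares. The order of Pdk3 and Pdk1 depends on this length, 2561 bases for Pdk3 and 7779 for Pdk1. By normalised read count Pdk1 lay above Pdk3 in control and untreated libraries.

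**Figure D4:**
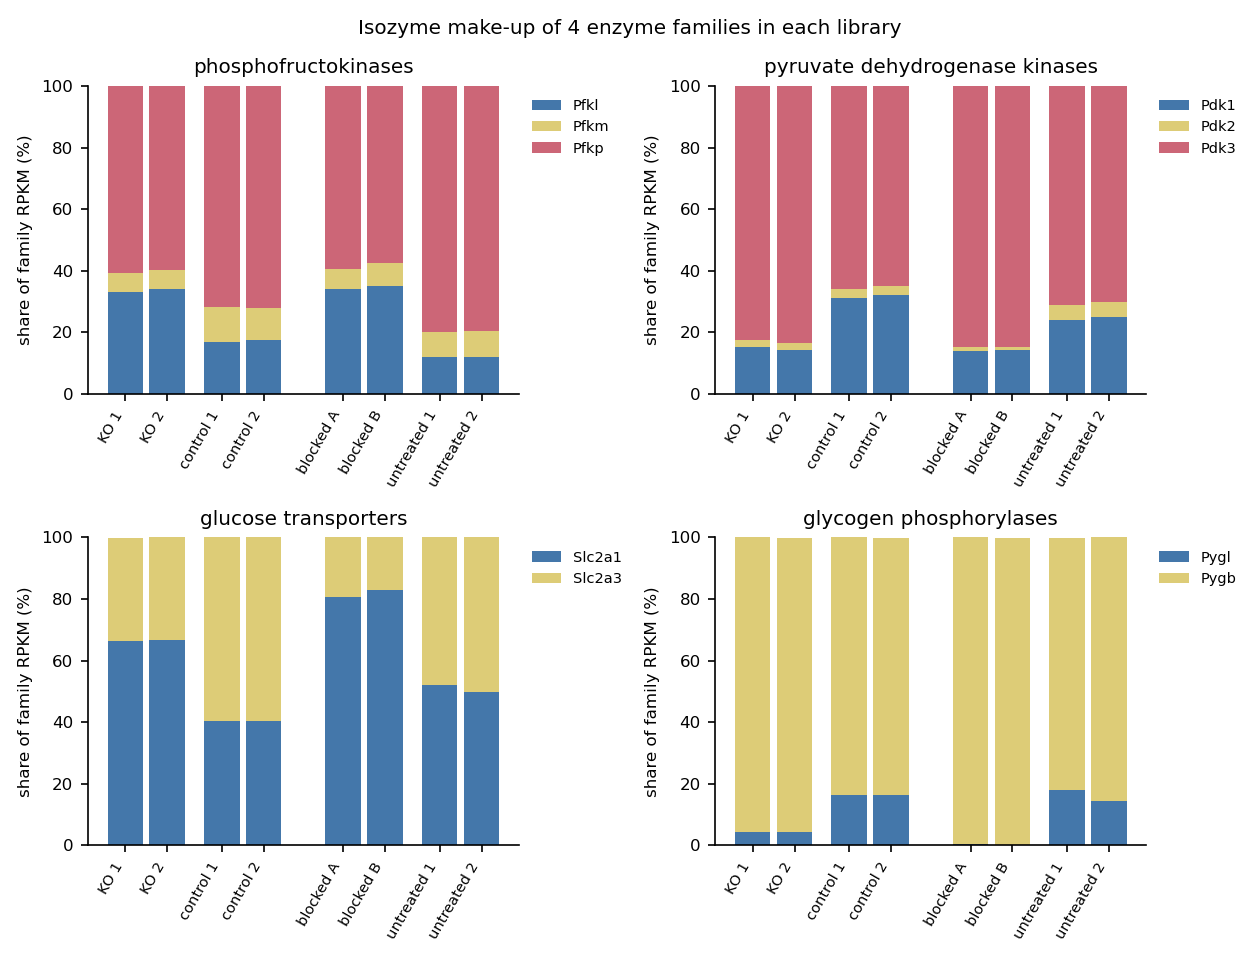
Share of family RPKM (%) of each isozyme as stacked bars, 1 bar per library, for phosphofructokinases, pyruvate dehydrogenase kinases, the glucose transporters Slc2a1 and Slc2a3, and the glycogen phosphorylases Pygl and Pygb. The parts of Slc2a3, Pdk1 and Pygl are smaller and that of Pfkl larger in knockout (KO) and blocked libraries than in their references.

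The experiments share no library, so the effects on the same genes were set side by side for the 37 members whose names match. In both, 10 members rose (27.0%, beside 22.5% of the 12428 genes tested in both): Pfkl, Pfkfb3, Pgam1, Pdk3, G6pdx, Pgd, Rpia, Rpe, Taldo1 and Pygb. In both, 14 fell (37.8%, beside 18.1%): Slc2a3, Gpi1, Pfkm, Pfkp, Aldoa, Aldoc, Pgk1, Eno1, Pkm, Slc16a3, Pdk1, Gys1, Gbe1 and Pygl. Gapdh and Slc16a1 were called in opposite directions (5.41%, beside 5.59%). Although leaving out 1 library could end those calls, as given above, the difference between the effects passed for Gapdh (-0.36, SE 0.073, adjusted p = 0.00172) and Slc16a1 (-0.34, SE 0.07, adjusted p = 0.0019) under every alternative run. The tables held very different levels of Gapdh, and the part of this in the difference was not tested. Slc2a1, Hk2, Ldhb and Pgls passed in neither. Across the members the log2 fold changes had a Pearson r of 0.805 and a Spearman rho of 0.873 (37 genes, which are not independent replicates), beside 0.600 and 0.612 over all 12428 genes. Without Pygl and Aldoc, farthest out on the blockade axis, r was 0.787.

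**Figure D5:**
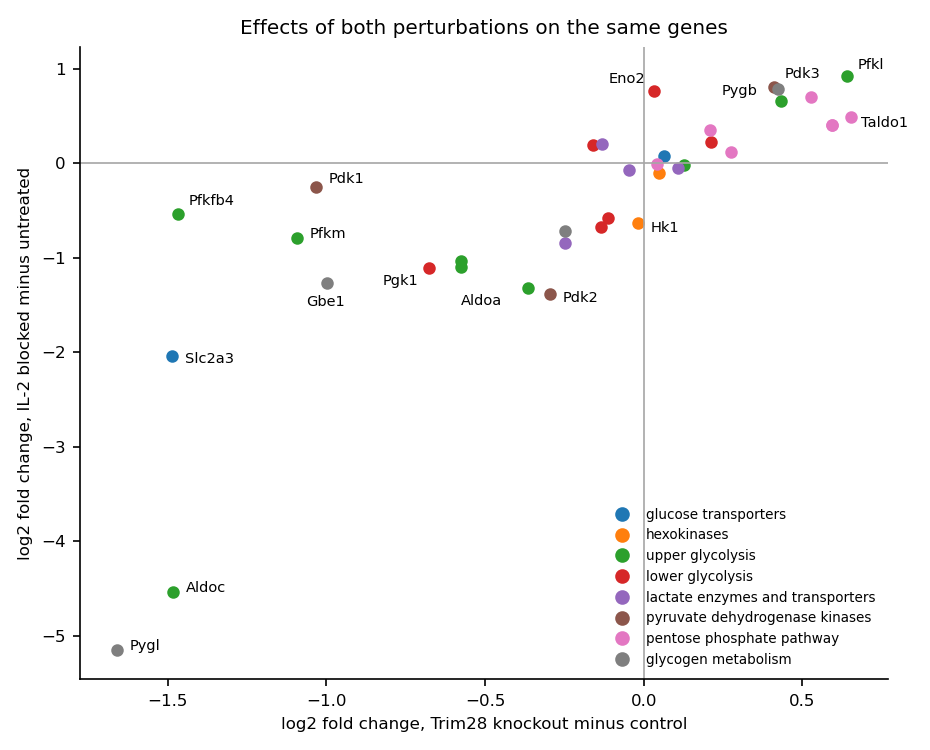
Log2 fold change in the knockout (horizontal) against that under blockade (vertical) for 37 genes, coloured by step, with the axes on different ranges. Most points lie at the lower left and upper right, Pygl and Aldoc lowest, and Pdk1 and Pfkfb4 lie far to the left but near 0 on the vertical axis.

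The size of the effects was compared in 1 fit of all 8 libraries, as the knockout effect minus the blockade effect. Of 37 members 26 differed (70.3%, beside 41.7% of all genes), 18 with a positive difference (48.6%, beside 24.7%) and 8 with a negative one (21.6%, beside 17.0%). At least 2-fold differences were called in 3 of the 37 members, close to the share of all genes (8.46% in either direction). They were Pygl (3.50, SE 0.25, adjusted p = 2.52e-07), Aldoc (3.05, SE 0.11, adjusted p = 5.11e-10) and Pdk2 (1.08, SE 0.25, adjusted p = 0.00398), all of them further down under blockade. The fall was also deeper under blockade for Aldoa (0.96), Slc16a3 (0.60), Slc2a3 (0.56), Eno1 (0.54), Gpi1 (0.52), Gys1 (0.47), Pkm (0.46), Pfkp (0.46) and Pgk1 (0.43), among which Aldoa, Eno1, Pkm and Pgk1 carry the uncertainty of genes with copies given above. Pdk1 went against this, with a deeper fall in the knockout (difference -0.78, SE 0.082, adjusted p = 9.07e-06). Of the risen members, Pdk3 (-0.40), Pygb (-0.37) and Pfkl (-0.29) rose further under blockade, and Eno2 also had a negative difference (-0.73, SE 0.13, adjusted p = 0.000707). The differences of Gbe1, Ldha, Pfkfb3, Pgd, Rpia and Tkt, of 0.15 to 0.27 in size, each lost their call in at least 3 of the 8 fits that left out 1 library and are not described further, and none of the 7 pentose phosphate members kept a difference under every alternative.

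Among 24 regulators of glucose genes tested, 8 rose and 13 fell in the knockout, the fallen including Trim28 itself, the gene removed, and 6 rose and 13 fell with blockade. Hif1a had 5321 and 5235 in knockout libraries against 8359 and 8587 in control libraries, and 6210 and 5527 in blocked libraries against 12424 and 12039 in untreated libraries. It was lower without overlap in both, at -0.68 (SE 0.027) and -1.06 (SE 0.055). Myc did not pass in the knockout (-0.02, adjusted p = 0.575) and fell by 0.80 with blockade (SE 0.052). Txnip, which restrains glucose uptake, fell in both (-0.86 and -1.36). Of 22 known HIF targets outside sugar metabolism tested, 0 rose and 20 fell in the knockout, and 2 rose and 18 fell with blockade, beside 28.2% and 28.9% of all genes lower. The median log2 fold change of the list was -0.56 in the knockout and -0.64 with blockade, beside 0.03 and 0.02 over all genes. Egln3, an oxygen sensor that marks HIF-1α for decay, fell in both (-2.04 and -4.33), as did P4ha2, a collagen prolyl hydroxylase (-1.98 and -3.37), and Bnip3, a mitophagy receptor (-1.50 and -2.56). This list was chosen with earlier results of these data known, so its direction is no independent evidence.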

How the data were processed

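The submitters' processing notes name DESeq2, StringTie (2.1.4), HISAT2 (2.2.1), Trim Galore (0.4.4) and mm10. The counter, its strand setting and the annotation are not given in the sources used here. The deposited values are a normalised signal, which the values show to be whole read counts divided by 1 factor per library, and each experiment was normalised separately by the authors. Whole reads were recovered in 100% of values (tolerance 0.001), giving 13398371 and 13469789 reads in knockout, 13254136 and 13222831 in control, 17042931 and 17069569 in blocked and 16653962 and 16618750 in untreated libraries.

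Genes reaching 10 in 2 or more libraries were compared with limma 3.58.1 (mean-variance trend, R 4.3.3) on log2 (value + 1), a scale that understates changes of low genes, within each experiment. P-values were adjusted by Benjamini and Hochberg over all genes tested, and calls need an adjusted p under 0.05. With 2 libraries against 2, an exact permutation test of 1 gene cannot go below p = 0.333. Effects were compared between experiments in 1 fit of all 8 libraries. The difference between replicates exceeded counting noise in all groups (1.30 to 3.90 chi-square units per gene). On the recovered reads edgeR 4.0.16 (quasi-likelihood, TMM) called 4548 genes higher and 4571 lower in the knockout, and 4258 higher and 4151 lower with blockade. RPKM used exon lengths of the GENCODE annotation on GRCm38, and promoters are those of RefSeq. The limma fit within each experiment was tested on simulated counts, with known changes in far fewer genes than were called here. The other steps were not tested in this way.

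Members, lists and the naming rule were chosen with earlier results of these data known. Library values are given for members called with a log2 fold change of at least 1 in size and for 1 other member per step. Other lists are given as counts with at most 3 called genes per direction, beside Trim28, Il2, Il2ra, Hif1a, Myc and Txnip. Alternatives were other pseudocounts, filters, scalings and tests, a replicate block and each library left out.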

Additional observations from a re-analysis of the deposited data

How the results depend on the processing

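Across pseudocounts of 0.1 and 5, other filters, TMM and upper-quartile scaling, edgeR, DESeq2, limma without the trend, 1 fit of all 8 libraries and each library left out, no member called in the reported fit reversed its direction. Members that did not pass changed sign under at least 1 alternative, namely Eno2, Hk1, Hk2, Ldhb, Pgls and Slc2a1 in the knockout and Pgls, Pgm2 and Tpi1 with blockade. Counts of members called stayed within 1.5 times of those reported, at 11 to 14 higher and 12 to 18 lower in the knockout and 9 to 16 higher and 14 to 20 lower with blockade. In the knockout 10 risen and 12 fallen members, and with blockade 9 and 15, kept their call in every alternative run. The members' median log2 fold change in the knockout was -0.12 with upper-quartile scaling, and -0.10 to 0.0022 with 1 library left out (without knockout library 1 and without knockout library 2). The spread of a group left with 1 library is assumed to equal that of the others.

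Over all genes in the knockout, 5065 were higher and 4344 lower, against 2846 and 2660 with DESeq2 on the recovered reads, and 3336 and 3361 were higher without knockout libraries 1 and 2. Scaling moved the median of all genes by under 0.1. Same-numbered knockout and control libraries did not deviate together (correlation 0.013 over 15415 genes). With 2 libraries per group this cannot decide whether the numbers pair them, and the labels do not say. With the replicate block 14 members were higher and 18 lower in the knockout, as without it. No paired analysis was possible for blockade because the blocked columns carry no number. With 2 libraries per group, small changes such as those of Ldha, Tpi1, Gapdh and Slc16a1 rest on single libraries, and Pfkfb4, Pdk2 and blocked Pygl on few reads. The causes of these dependences were not tested.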
